A study of Mus musculus with 18 samples.

Results

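Of the 139354 regions of accessible chromatin found in mouse muscle cells on chromosomes 1 to 19, 22506 were found only in the 24 h myocytes labelled wild type. Accessibility was measured by ATAC-seq, where a transposase cuts and tags DNA that is not packed away, so that read pileups mark open sites. The regions came from merging 4 deposited peak lists wherever peaks overlapped by 1 bp or more. A region was kept if it held a peak of the myocyte list labelled wild type and no peak of the other 3 lists. Presence and absence in the lists chose the regions, so their number, strength and width are a description and carry no test.

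The study labelled 4 ATAC-seq groups of 3 samples each, all from mouse skeletal muscle: wild-type myocytes, MyoD-null myocytes, MyoD-null myoblasts and wild-type myoblasts. Both myocyte groups had undergone 24 h of myogenic differentiation. The labels give no treatment for the myoblasts and no strain or age for any group. Each list was called on merged reads of its group, so no value has an error between samples and no test between groups was possible. The series also names 6 RNA-seq samples of C2C12 myocytes, 3 with CTCF knockdown and 3 controls, not analysed here.

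The labels and the peak names disagree on which list is which genotype. Peaks of the list labelled wild-type myocytes have names that read MKO-DM, and peaks of the list labelled MyoD-null myocytes have names that read WT-DM. MKO is the abbreviation that the MyoD-null samples carry in their titles. For the myoblasts, names and labels gave the same genotype. Every value below therefore belongs to myocytes labelled wild type, whose peaks are named as MyoD-null. The same regions are selected under either reading, with the genotype exchanged. The names of both myocyte lists also begin with a prefix that the myoblast names lack, so differentiation and any difference in handling cannot be told apart.

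MyoD is a basic helix-loop-helix transcription factor that binds E-box sequences and can open closed chromatin at muscle genes. Myoblasts are proliferating precursors. On withdrawal from growth conditions they leave the cell cycle, switch on myogenin and structural muscle genes, and become myocytes that can fuse into fibres. Sites that open during this step are often enhancers far from gene starts. The regions are given here by position in build mm9, and they were not assigned to genes or sequence motifs, since no annotation or genome of that build was used here. For the same reason the cell types were not checked against marker genes.

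The 22506 regions made up 16.2% of all merged regions (95% Wilson interval 16.0 to 16.3). They formed the second most frequent of 15 combinations of lists, after the 64013 regions listed in all 4 groups (45.9%, 45.7 to 46.2). They were 20.7% of the 108662 regions that held a peak of myocytes labelled wild type. Regions listed only in the other myocytes numbered 4749, or 5.59% of that list. Regions listed only in MyoD-null myoblasts numbered 7690 (8.03% of that list), and those only in wild-type myoblasts 5236 (5.62%). Intervals cover counting error only. Each rate describes regions chosen by the rule and can move with the lengths of the lists.

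The lengths differed. The list of myocytes labelled wild type held 109753 peaks on these chromosomes, against 86575 in the other myocytes, 100192 in MyoD-null myoblasts and 96420 in wild-type myoblasts. With all lists cut to 86575 peaks by p-value, there were 13826 regions found only in myocytes labelled wild type and 8112 found only in the other myocytes. Regions found only in MyoD-null myoblasts then numbered 5539, and those only in wild-type myoblasts 4985. The list of the other myocytes was the shortest and lost no peaks, so its count rose from 4749 only because the other lists were cut. The excess over the other myocytes was thus smaller with equal lengths, but in the same direction.

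Each of the other lists removed some regions that would otherwise have qualified. Leaving the other myocytes out of the rule would add 4713 regions, which were open in both myocyte lists and listed for no myoblast group. Leaving out MyoD-null myoblasts would add 3099 regions, and leaving out wild-type myoblasts 2510.

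The regions had lower folds and smaller widths than shared ones, and higher folds than regions found only in another list. Their median fold enrichment, the summit pileup over the local background as the authors deposited it, was 3.77, with quartiles of 3.18 and 4.62. The lowest was 1.56 and the highest 14.95. At regions of all 4 lists the median was 5.80 in myocytes labelled wild type, and 6.13 taking the highest fold in any list. It was 3.20 for regions found only in the other myocytes, 2.93 for those only in MyoD-null myoblasts and 2.91 for those only in wild-type myoblasts. Each of these is on the scale of its own list. At regions of all 4 lists, median ratios of the other lists' folds to this list's were 0.788 to 0.899. The part of scale in the higher folds was not tested. Median widths were 334 bp for the 22506 regions, 273 bp for regions only in the other myocytes, 245 and 246 bp for regions only in MyoD-null and only in wild-type myoblasts, and 736 bp for regions of all 4 lists. All 22506 regions held a single peak. Stronger ones were also wider, with a Spearman correlation of 0.55 between fold and width across the regions, which share 1 list and its background.

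**Figure D1:**
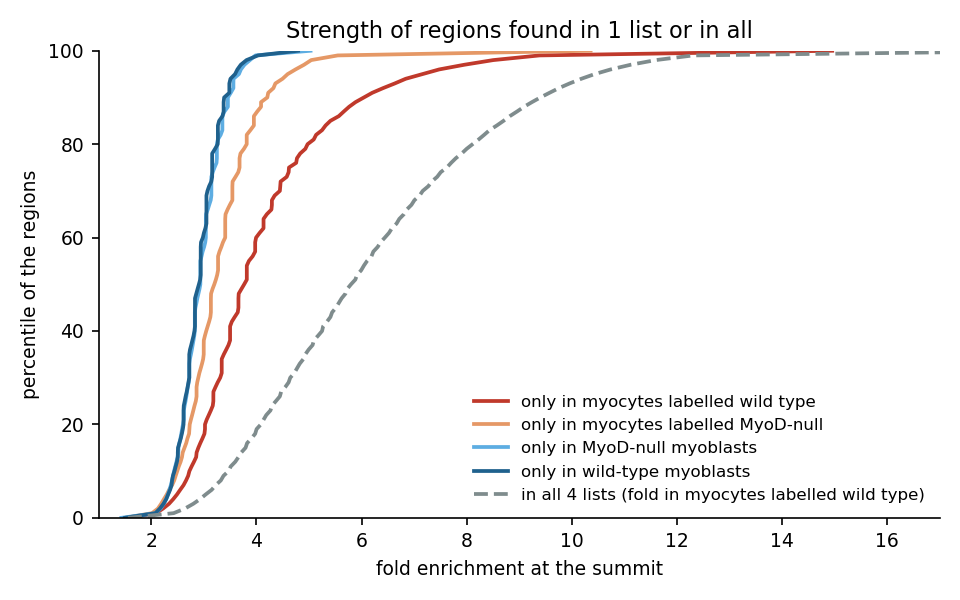
Fold enrichment (horizontal) against percentile of the regions (vertical) for regions found in 1 list alone (solid lines) and for regions of all 4 lists, with their fold in myocytes labelled wild type (dashed). The line for regions found only in myocytes labelled wild type lies right of the other solid lines, with a median of 3.77 against 3.20 for the other myocytes, and reaches 14.95. Folds of different lists are not on 1 scale.

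The upper end of the range set the list apart from the others. A fold of 5 or more was reached by 4471 of the 22506 regions. They were 8.72% of the regions of that list at this strength. At the same strength, 117 regions were found only in the other myocytes (0.341% of that list), 1 only in MyoD-null myoblasts (0.00416%) and 0 only in wild-type myoblasts (0%). At a fold of 8 or more the regions numbered 658 (4.39% of the list at this strength), against 1 in the other myocytes (0.0128%) and 0 in either myoblast list (0%). At a fold of 10 or more they numbered 121 (2.55%), against 1 in the other myocytes (0.0609%) and 0 in either myoblast list (0%). A larger number was thus also seen at folds of 5, 8 and 10 or more, and its cause was not tested. Folds of different lists are not on 1 scale, however. At regions of all 4 lists, the median ratio of the fold in the other list to that in myocytes labelled wild type was 0.899 for the other myocytes, 0.794 for MyoD-null myoblasts and 0.788 for wild-type myoblasts.

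Ranks within each list were also taken. The top 25% of its own list by fold (6.68 or more) was reached by 1538 regions found only in myocytes labelled wild type, or 6.83% of them (6.51 to 7.17). Of regions found only in the other myocytes, 18 or 0.379% (0.240 to 0.598) reached the top 25% of theirs. It was 1 of 7690 for MyoD-null myoblasts and 0 of 5236 for wild-type myoblasts. The lists differ in length, which also moves the limit of the top 25%, so these shares describe each list and are no comparison between them.

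Within the list of myocytes labelled wild type, the share found there alone fell as strength rose. It was 40.6% (39.7 to 41.6) of regions with a fold under 3 and 21.8% (21.3 to 22.4) of those between 4 and 5. It was 8.35% (7.98 to 8.73) between 6 and 8, and 1.63% (0.992 to 2.68) at 12 or more, where 15 of 919 regions qualified. In wild-type myoblasts the share found there alone was 16.2% (15.7 to 16.8) under 3 and 0.304% between 4 and 5.

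**Figure D2:**
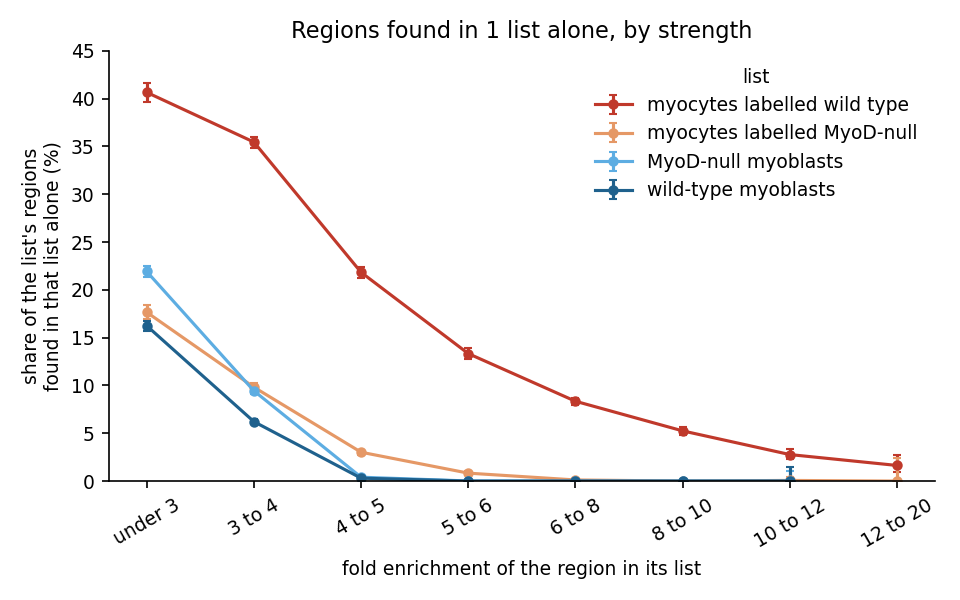
Share of each list's regions found in that list alone (vertical, percent) by their fold enrichment (horizontal), with 95% Wilson intervals; bins of under 100 regions are left out. The line for myocytes labelled wild type falls from 40.6% to 1.63% and lies above the others in every bin, although the intervals of the last bin overlap.

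The summit pileup and local background were recovered from the deposited fold and p-value for all 22506 regions. The median summit was covered by 30 reads, with quartiles of 23 and 43, a lowest of 15 and a highest of 161. The genome-wide background was 5.29 reads per base in myocytes labelled wild type, 6.34 in the other myocytes, 8.54 in MyoD-null myoblasts and 8.18 in wild-type myoblasts. The list behind these regions thus had the lowest background. Of the 22506 regions, 42.7% stood at the genome-wide background, against 18.9% for the strongest peak of that list in regions of all 4 lists.

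The limit of listing in each other list was then worked out at the local background of each region, scaled by the lists' genome-wide backgrounds. The median limit was a fold of 2.39 in the other myocytes, 2.21 in MyoD-null myoblasts and 2.24 in wild-type myoblasts. A fold at least 2 times the limit of all 3 lists was seen at 6016 regions, or 26.7%. The regions were chosen for being listed in myocytes labelled wild type, so this count describes their height in that list and says nothing of the other lists. Local backgrounds in the other lists at these places are unknown. Absence from a list means that a region was not detected at the depth of that list, and a closed state was not measured.

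The region with the highest fold lay at chr10:16509402-16509996, with 93 reads over a local background of 5.29 and a fold of 14.95. No other region of any list lay within 50 kb of it, and the nearest peak of the other myocytes was 83987 bp away. The second, at chr12:27920441-27921233, had 111 reads, a local background of 6.68 and a fold of 14.6. Peaks of all 3 other lists lay 13524 to 13574 bp from it, and its neighbourhood of 50 kb held 2 further regions of the same kind.

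The next were at chr7:37355964-37356812 (fold 14.0), chr7:63423933-63424703 (13.8) and chr5:43485437-43486189 (13.7). These had 91, 98 and 85 reads at the summit. The first of them was remote from the other lists, whose nearest peaks lay 43232 bp away in MyoD-null myoblasts, 45923 bp in wild-type myoblasts and 79274 bp in the other myocytes. The second was 21568 bp from a strong peak of the other myocytes, with a fold of 10.05. The third lay in a group, with 5 further regions of the same kind within 50 kb.

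The sixth, at chr13:82734558-82735452 (fold 13.4), was the most isolated of the 10, with 233757 bp to the nearest region of any kind. The seventh lay at chr19:31979981-31980794 (13.1). It was close to peaks of MyoD-null myoblasts and of the other myocytes, at 4105 and 4190 bp. The eighth, at chr1:67003799-67004479 (12.8), had 6 further regions of the same kind within 50 kb. The ninth was at chr2:52268083-52268698 (12.6) and the tenth at chr16:3820119-3820940 (12.5). All 10 were 595 to 895 bp wide with 83 to 111 reads at the summit, above the upper quartiles of 454 bp and 43 reads for the 22506 regions.

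The widest regions were not the strongest. The first was at chr9:103310750-103312401, 1652 bp wide, with a fold of 5.79. The second, at chr4:56758298-56759938, was 1641 bp wide with a fold of 8.68. The third, at chr4:136766820-136768454, was 1635 bp wide with a fold of 4.50.

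Few regions depended on the exact overlap rule. Of the 22506, 137 (0.609%) lay within 100 bp of a region that held a peak of another list, and 3906 (17.4%) within 1000 bp. Just inside the rule, the regions at chr14:68508252-68508602 (fold 3.66), chr13:105330949-105331271 (3.34) and chr8:70605470-70605721 (2.86) touched a peak of another list without sharing a base. Just outside it, the peak at chr11:72354295-72354552 (3.66) shared 1 bp with a myoblast peak. The peaks at chr9:36845046-36845318 (3.98) and chr6:29412017-29412307 (2.17) shared 2 bp with a peak of the other myocytes and of wild-type myoblasts. Folds ran from 2.86 to 3.66 just inside the rule and from 2.17 to 3.98 just outside it.

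Stronger regions lay farther from shared accessible sites. Of all 22506 regions, 13821 or 61.4% (60.8 to 62.0) had a region of all 4 lists within 10 kb, and the median gap to it was 6940.5 bp. The share was 68.6% (67.3 to 69.9) for regions only in the other myocytes, 53.2% (52.1 to 54.3) for those only in MyoD-null myoblasts and 51.0% (49.6 to 52.3) for those only in wild-type myoblasts. It was 68.1% (67.3 to 68.9) for the 13513 regions with a fold under 4 and 35.4% (31.9 to 39.1) for the 658 with a fold of 8 or more. Regions of all 4 lists showed the same direction, with 83.1% at a fold under 4 and 47.6% at 8 or more, measured to another such region. The trend is therefore not particular to regions found in 1 list. With all lists cut to a fold of 5 or more, when fewer regions were left in all 4 lists, the share near one was 19.2%.

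**Figure D3:**
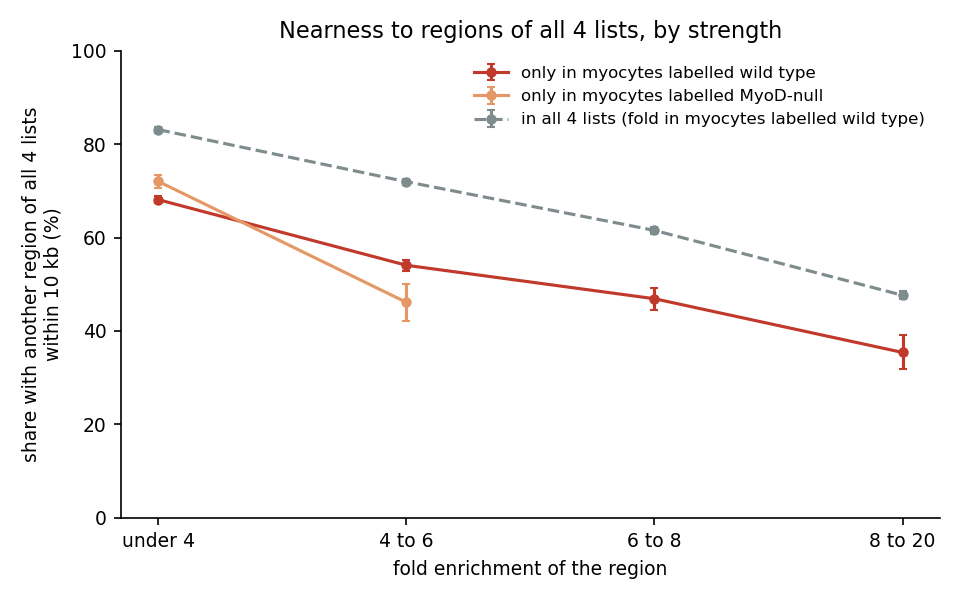
Share of regions with another region of all 4 lists within 10 kb (vertical, percent) by their own fold enrichment (horizontal), with 95% Wilson intervals. The share for regions found only in myocytes labelled wild type falls from 68.1% to 35.4%, and that for regions of all 4 lists from 83.1% to 47.6%.

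These regions were more frequent beside one another than beside other regions. Of the regions flanking one of the 22506, the next merged region on either side along the chromosome, 20.5% (20.1 to 20.8) belonged to the same class. Around all other regions it was 15.3% (15.2 to 15.5). The ratio of these shares was 1.34, and between 1.27 and 1.58 for regions found only in the other myocytes, only in one myoblast list, or in both myocyte lists alone. Grouping of like regions was thus seen in each of these classes. Flanking pairs count each pair of neighbours from both sides, so the intervals are too narrow.

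The excess was present at every gap. For neighbours less than 1 kb apart, 25.8% (24.7 to 27.0) of flanks were found only in myocytes labelled wild type when the region itself was, and 14.3% (13.9 to 14.7) otherwise. For neighbours 20 to 100 kb apart, the shares were 21.2% (20.2 to 22.2) and 15.4% (15.1 to 15.8). Split peaks of 1 open site can contribute at under 1 kb, and their part was not tested. The share also differed with strength: it was 18.4% (18.0 to 18.9) of flanks of regions with a fold under 4 and 29.7% (27.3 to 32.2) at 8 or more. The median number of regions of the same kind within 50 kb was 2 at both strengths, however. The mean number of other regions within 50 kb was 9.55 at a fold under 4 and 6.08 at 8 or more. The part of these sparser surroundings in the higher share was not tested.

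**Figure D4:**
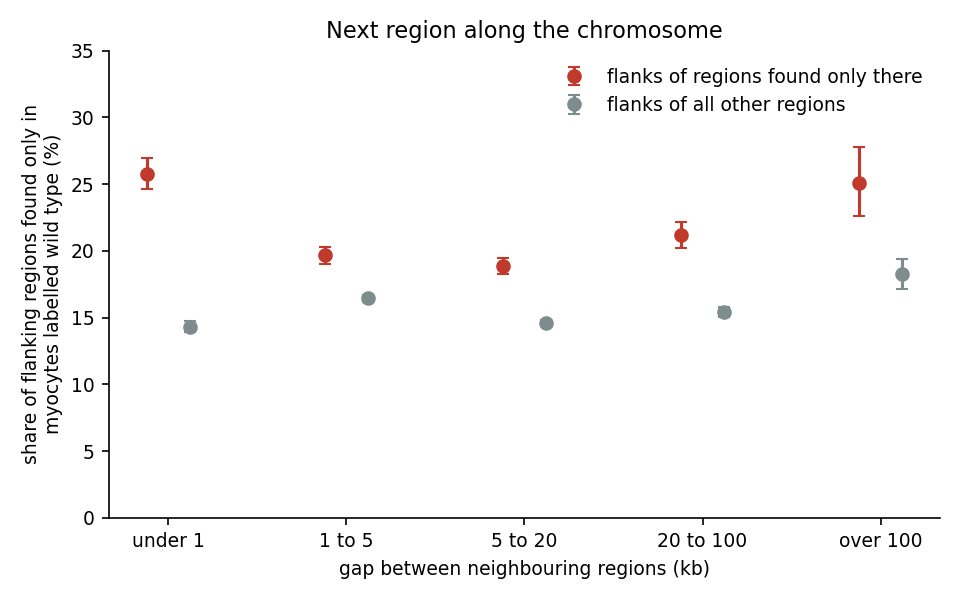
Share of flanking regions found only in myocytes labelled wild type (vertical, percent) around regions that are themselves found only there (red, left) and around all other regions (grey, right), by the gap between the neighbours (horizontal, kb), with 95% Wilson intervals. The red share is higher in all 5 gap classes, with 25.8% against 14.3% under 1 kb.

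Classes with no peak of myocytes labelled wild type were less frequent next to these regions, and so were some classes that held one. Regions open in both myoblast lists alone made up 3.84% of their flanks and 4.84% of the flanks of other regions, a ratio of 0.794. For regions only in MyoD-null myoblasts the shares were 4.53% and 5.71%, and for those only in wild-type myoblasts 3.42% and 3.82%. For regions only in the other myocytes they were 2.94% and 3.50%. Regions in both myocyte lists alone, at 3.52% and 3.36%, were not lower. Regions shared with wild-type myoblasts alone were higher, at 2.07% and 1.75%, and so were those shared with MyoD-null myoblasts alone, at 2.36% and 2.20%. Those shared with both myoblast lists stood at 4.92% and 4.89%. Shares of 1 total move against each other, so the higher share of the regions' own class lowers the rest.

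Of the 22506 regions, 14420 (64.1%) had a region of another class on both sides. The other 8086 (35.9%) formed 3481 runs of 2 or more with no other merged region between, and 52 runs held 5 or more. The longest run spanned chr18:79041582-79173994, or 132 kb, with 9 regions. Their folds were 3.21, 3.23, 4.77, 5.89, 10.3, 2.95, 3.01, 5.83 and 2.87 in order along the chromosome. The strongest, the fifth in order, had 77 reads at the summit and lay 66346 bp from the region before it. The run ended 1586 bp before a region listed only in wild-type myoblasts.

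The second run spanned chr11:67040155-67093967, or 53.8 kb, with 8 regions. Their folds were 4.70, 2.86, 2.96, 5.73, 10.0, 6.77, 2.28 and 2.59. The sixth had the highest pileup of the run, 107 reads, over a local background of 14.96, well above the genome-wide 5.29. No peak of another list lay within 26324 bp before or 33150 bp after this run, where regions of all 4 lists followed.

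Of 4 runs of 7 regions, those with the longest spans lay at chr8:75506445-75603756 (folds 3.50 to 6.68), chr1:82005179-82096953 (3.18 to 6.20) and chr11:31472662-31515378 (3.03 to 5.25). The fourth, of shorter span, lay at chr11:88513191-88541827 (2.74 to 3.31). None of these 4 held a region with a fold of 8, unlike the longer runs.

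**Figure D5:**
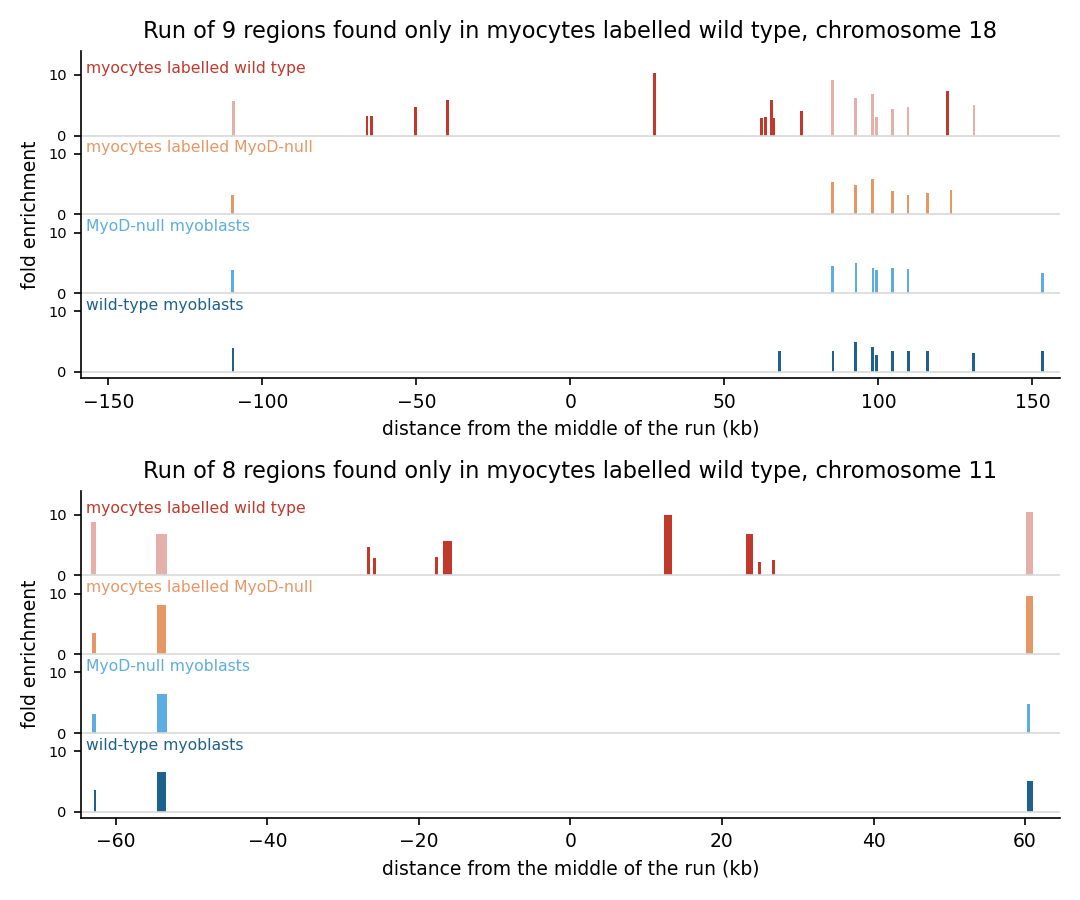
Peaks of the 4 lists around the runs of 9 and 8 regions, with distance from the middle of the run (horizontal, kb) and fold enrichment (vertical, a separate axis from 0 for each list). Dark red bars are regions found only in myocytes labelled wild type and pale red bars are peaks shared with another list; bars are drawn at least wide enough to be seen. The other 3 lists have no bar inside either run, and each run has 1 bar of 10.0 or more.

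By fixed windows of 100 kb, the fullest was chr13:12400001-12500000, where 11 of 15 regions were found only in myocytes labelled wild type. All 15 held a peak of that list, and 4 held a peak of each of the other lists. Windows with 10 such regions were chr18:24900001-25000000 (of 15), chr14:101900001-102000000 (of 15), chr6:114700001-114800000 (of 22) and chr4:106600001-106700000 (of 23). The highest fold in the chromosome 14 window was 10.7, and in the chromosome 4 window 5.26. Windows of this kind were few, as 19 of the windows held 9 or more and 5114 held 1.

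The regions were spread over all 19 chromosomes in similar shares. The share of merged regions found only in myocytes labelled wild type was lowest on chromosome 7, at 14.8% (14.1 to 15.6), and on chromosome 11, at 14.9% (14.2 to 15.6). It was highest on chromosome 16, at 17.8% (16.8 to 18.9), and on chromosome 18, at 17.6% (16.5 to 18.7). The intervals of the lowest pair and the highest pair do not overlap, and the whole set stood at 16.2%. Median folds ranged from 3.64 on chromosome 11 to 3.85 on chromosome 16.

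At shared regions the fold in myocytes labelled wild type over wild-type myoblasts was no larger with many of these regions nearby than with none. Regions of all 4 lists were grouped by how many of the 22506 lay within 50 kb. The median log2 ratio of the fold in myocytes labelled wild type to that in wild-type myoblasts was 0.36 with none nearby (15222 regions), 0.34 with 2 and 0.30 with 6 or more (2013 regions). The interquartile range was 0.15 to 0.59 with none and 0.05 to 0.57 with 6 or more, so the groups largely overlapped. The median log2 ratio of the other myocytes to MyoD-null myoblasts was 0.15 with none and 0.20 with 6 or more. The median log2 ratio of the myocytes labelled wild type to the other myocytes was 0.19 with none and 0.08 with 6 or more. The number of all regions within 50 kb also differed, with a median of 7 where none lay nearby and 19 where 6 or more did, and its part was not tested. These ratios come from the same lists as the rule and have no test.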

How the data were processed

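Chromatin accessibility was measured in 12 ATAC-seq samples in 4 groups of 3, with 1 deposited narrowPeak list per group. For these samples the submitters' processing notes name build mm9, MACS2 and deepTools and give no versions. Peak names refer to merged alignments with a MAPQ30 tag, so replicates were pooled before peaks were called. STAR is named for the RNA-seq samples alone. Not given for ATAC-seq in the sources used here are the aligner, the caller's settings and any shift of reads for the transposase. The fold enrichment deposited by the authors is a ratio of summit pileup to local background. Each peak has a deposited −log10 p and −log10 q, of which the lowest −log10 q was 2.02. The deposited score column (10 times −log10 q) was not used.

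Peaks on chromosomes 1 to 19 were merged at 1 bp of overlap. Pileups were recovered as whole numbers that give both the deposited fold, (pileup + 1) / (background + 1), and the Poisson p-value to within 0.01 on the −log10 scale. The genome-wide background is the most frequent local background of a list. It depends on the length given to each read, so read totals per sample are unknown. Shares have 95% Wilson intervals. No p-value is given, since each group has 1 list. Named regions were the 10 strongest, the 3 widest, the 5 longest runs (ties by span, with the next tied run added), the 5 fullest windows and the 3 closest to the rule on either side. The regions and all summaries were chosen with earlier results of these data known. Repeats and artefact-prone regions were not filtered. Merging, gaps and neighbour counts were tested on 20000 simulated regions. All 6 known quantities, pileups among them, were recovered within 1%. Recovery of pileups as low as 30 reads, the median of the 22506 regions, was not tested. Computation used pandas 2.3.3, numpy 2.4.6 and scipy 1.17.1 in Python 3.11.15, and figures matplotlib 3.10.9. Gene tables supplied here are on GRCm38, so no gene, promoter or motif was assigned, and the planned search for motifs was not run.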

Additional observations from a re-analysis of the deposited data

How the results depend on the processing

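Over 7 alternatives, 31 of 55 recomputed values stayed within 1.5 times the original count or inside its interval. Only the excess among flanks could have changed direction, and it stayed positive. With lists of equal length the regions numbered 13826, or 11.4% of all, with a median fold of 4.55, a median width of 416 bp and 58.2% within 10 kb of a region of all 4 lists. With a fold of 5 or more in every list they made up 34.0%, with a median fold of 5.95, a width of 560 bp, 19.2% near a region of all 4 lists, 462 at a fold of 10 or more, and an excess among flanks of 3.39 percentage points, against 5.14. There, regions may be listed elsewhere at a lower fold. With −log10 q of 5 or more in every list, the share was 16.7%, the nearness 59.2%, the median fold 3.98 and the width 367 bp. With that limit on the myocytes labelled wild type alone, the share was 13.6%, the fold 3.98 and the width 361 bp. Merging gaps of up to 250 bp gave a share of 15.9%, a nearness of 60.7% and a fold of 3.82. Summit windows of 250 bp gave a share of 15.8% and a fold of 3.81, and fix the width by construction. With chromosomes X and Y the nearness was 60.6%. Each limit on fold, q or list length leaves fewer peaks, and the cause of these shifts was not tested. The excess among flanks and the count at a fold of 10 or more were added after the data were seen. Leaving out a replicate was not possible, since reads were merged before peaks were called. No paired analysis was possible because each group has 1 merged list and the result comes from no test. The background of 5.29 to 8.54 reads per base limits what a list can hold: a summit at that background needed 15 reads in myocytes labelled wild type, 17 in the other myocytes, 21 in MyoD-null myoblasts and 20 in wild-type myoblasts. As folds, these limits were 2.55, 2.45, 2.31 and 2.29 in the same order, highest in myocytes labelled wild type.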

Other observations

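Regions found only in myocytes labelled wild type made up a larger share of all regions where sites outside this class were sparse. Density was counted over such sites within 100 kb. The class itself is left out of that count, so its share can be raised by construction where few sites are counted. Among regions with no such site nearby, they were 271 of 1196, or 22.7% (95% Wilson interval 20.4 to 25.1). With 6 to 10 such sites the share was 17.9% (17.4 to 18.5), and with 21 to 40 it was 15.1% (14.8 to 15.4). Regions found only in one or both myoblast lists also declined over the same classes, with 24.6%, 18.0% and 10.2%. Such regions do enter the count, so the steepness of their decline cannot be compared with that of the class left out. Regions found only in the other myocytes were at 4.35%, 2.99% and 3.63%, with no steady direction.

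Over windows of 1 Mb with at least 30 merged regions, a size chosen after the values were seen, the share ranged from 0 to 43.75% in 1566 windows, with quartiles of 12.1% and 19.8%. The highest shares, 14 of 32 regions each, were at chr14:101000001-102000000 and chr1:145000001-146000000. The chromosome 14 window contains one of the fullest windows of 100 kb named above. Next came chr10:51000001-52000000 with 18 of 42 regions. Windows with none were chr9:89000001-90000000, with 32 merged regions, and chr13:67000001-68000000, with 35.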
